A study of Mus musculus with 20 samples.

Results

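The response shared by both agonists of estrogen receptor alpha was examined by setting 10 of the 20 ventricle samples of the series, 5 titled alpha and 5 titled E2, against the other 10, 5 titled beta and 5 titled OVX. Samples were placed by their titles alone, with no measured value used. The alpha samples came from mice given 16 alpha LE2, which the labels call an agonist of receptor alpha, and the E2 samples from mice given 17 beta estradiol, which activates both classical estrogen receptors. The beta samples carry a title that names neither agent and a source label of control solution; since these labels disagree, they are called the beta-titled group and were kept apart from placebo in every pairwise comparison. The OVX samples came from mice given placebo. All 4 groups consisted of female C57BL/6 mice that had lost their ovaries at 8 weeks of age and then carried an Alzet minipump for 4 weeks, so no group had ovaries and no intact animals were measured. Doses are not given in the labels, which also do not tie each sample to an animal in so many words, so the p-values below measure the spread between these samples, which may be technical.

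Estrogen receptors are ligand-activated transcription factors: receptor alpha and receptor beta bind estradiol, dimerize and act on genes through estrogen response elements or through other factors already on the DNA. In the heart, cardiomyocytes, fibroblasts and endothelial cells have all been described as estrogen-responsive, and loss of ovarian estrogen has been linked to changes in matrix deposition and energy substrate use. The title of the series names glucose uptake, which in the ventricle runs through Slc2a1 (GLUT1, the transporter that works without insulin) and Slc2a4 (GLUT4, the insulin-regulated transporter).

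Gene expression was read on 1 Affymetrix array per sample, as deposited log2 values, on which a difference of 1 is taken as 2-fold. A probe set naming exactly 1 gene was found for 18193 genes, and the 12075 whose mean exceeded 6.93, the median of all probe sets, were tested with limma over all 20 arrays. For a typical gene the 95% confidence interval of the agonist difference reached 0.15 log2 units to either side, a precision limited by the number of arrays. Estradiol sample 33 stood apart, with Spearman correlations of 0.922 to 0.941 with the other arrays, which correlated among themselves at 0.978 to 0.992. The defining ventricular markers were near the top of the range, with Myl2 at 14.74, Tnnt2 at 14.34 and Myh6 at 14.10 over all arrays, and the atrial marker Bmp10 lay below the filter at 6.75. The receptors themselves lay low on this scale. Esr1, which encodes receptor alpha, averaged 6.83 in the agonist samples and 6.94 in the remaining ones. Esr2, which encodes receptor beta, averaged 6.53 in the agonist samples and 6.56 in the remaining ones. Both lay below the filter over all arrays and were not tested.

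With both agonists pooled, a small set of genes differed from the remaining groups: 28 of 12075 passed a limma adjusted p of 0.05 (0.232%), 8 higher (0.0663%) and 20 lower (0.166%). The genes that rose encode the glucose transporter Slc2a1, the prostaglandin D synthase Ptgds, the secreted glutathione peroxidase Gpx3, von Willebrand factor (Vwf), the secreted matrix protein Spon1, the anion exchanger Slc4a1, the protease Bace2 and the transcription cofactor Rfxank. Those that fell were led by Col3a1, Postn, Nrep, Sparc and Itih5, and 8 of the 20 belong to a list of extracellular matrix genes. Changes were modest, between 1.22-fold for Itga1 and 1.95-fold for Col3a1. At an unadjusted p under 0.05 there were 919 genes (7.61%), of which 248 were higher (2.05%) and 671 lower (5.56%).

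Ptgds, which converts prostaglandin H2 into prostaglandin D2 and is also a lipophilic carrier protein, separated the groups without overlap. Its values were 13.27, 13.34, 13.45, 13.31 and 13.35 with 16 alpha LE2 and 13.51, 13.21, 13.23, 13.36 and 13.48 with estradiol. They were 12.79, 12.21, 12.58, 12.93 and 12.81 in the beta-titled group and 13.13, 13.15, 12.51, 12.96 and 12.58 with placebo. Every agonist sample lay above the highest placebo sample, with the narrowest gap between estradiol sample 30 and placebo sample 32. The difference was 0.58 ± 0.09 log2 units (SE; 1.5-fold, limma adjusted p = 0.00561). The Ptgds call was lost with the replicate number as a block and against placebo alone (limma adjusted p = 0.172). Ptgds was 1 of 2 genes in all whose 10 agonist values and 10 remaining values did not overlap (0.0166%), and the only one that was higher (0.00828%).

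Slc2a1 was the called gene on the path of glucose uptake. It measured 8.86, 8.75, 8.76, 8.85 and 9.05 with 16 alpha LE2 and 8.80, 8.70, 8.34, 8.91 and 8.79 with estradiol. In the beta-titled group it measured 8.18, 8.38, 8.36, 8.46 and 8.5, and with placebo 8.43, 8.62, 8.42, 8.31 and 8.52. Of the 10 agonist samples 9 lay above every remaining sample, and the exception, at 8.34, was estradiol sample 33, the array with the low correlations. The difference was 0.36 ± 0.07 (SE; 1.28-fold, limma adjusted p = 0.0216), and its 3 probe sets read 0.36, 0.36 and 0.23. Without estradiol sample 33 it was 0.41 ± 0.056 (limma adjusted p = 0.00168). The call was lost without estradiol sample 34 (limma adjusted p = 0.0533) and without placebo sample 31 (0.0623). The Slc2a1 call was also lost with the replicate number as a block (limma adjusted p = 0.274), against placebo alone (0.227), against the beta-titled group alone (0.11) and at a threshold of 0.01. Replicate numbers were spread unevenly over the agonist and remaining samples, as given in the closing part.

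Slc2a4, the insulin-regulated transporter, averaged about the same in both sets: its lowest, median and highest values were 10.71, 10.88 and 11.28 in the agonist samples and 10.66, 10.87 and 11.11 in the remaining ones. The difference of 0.04 ± 0.07 (SE) had a 95% interval of −0.115 to 0.188, and its limma adjusted p was 0.888. It turned to just below 0 in 2 settings that are given in the closing part. Of the 28 tested members of a list for glucose uptake and insulin signalling, 15 were higher and 13 lower, Slc2a1 alone was called, and the list median was 0.02, beside −0.0045 over all genes tested. The kinase Pdk4, which blocks pyruvate entry into oxidation, differed by −0.22 (limma adjusted p = 0.769), and none of the 14 tested genes of glycolysis and lactate or the 30 of the respiratory chain was called.

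The other genes that rose held different roles. Gpx3, a selenoprotein that removes peroxides outside the cell, ran from 11.18 through a median of 11.51 to 11.87 in the agonist samples and from 10.20 through 10.85 to 11.51 in the remaining ones. The ranges overlapped through placebo sample 32 and beta-titled sample 35, at 11.51 and 11.34, and all 10 agonist samples lay above the mean of the remaining samples. Gpx3 differed by 0.63 ± 0.12 (SE; 1.55-fold, limma adjusted p = 0.0239), the largest of the 8 called rises. That call was lost without 16 alpha LE2 sample 33, estradiol sample 34, placebo sample 31 or beta-titled sample 33, at adjusted p-values of 0.0573, 0.0584, 0.0676 and 0.0503.

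Bace2, a membrane aspartyl protease, ran from 7.14 through 7.37 to 7.53 in the agonist samples and from 6.75 through 7.05 to 7.21 in the others, with 9 of 10 agonist samples above every remaining one. Its difference was 0.32 ± 0.06 (SE; limma adjusted p = 0.0105). Rfxank, a subunit of the factor that drives class II histocompatibility genes, ran from 8.48 through 8.57 to 8.89 in the agonist samples and from 8.08 through 8.29 to 8.55 in the others. Only placebo sample 32 reached into the agonist range, and the difference was 0.31 (limma adjusted p = 0.0302). Spon1 (F-spondin), a secreted matrix protein, ran from 8.37 through 9.03 to 9.33 in the agonist samples and from 8.39 through 8.54 to 8.86 in the others. Estradiol sample 33 was its lowest value of all, the other 9 agonist samples lay above every remaining one, and the difference was 0.45 ± 0.08 (SE; limma adjusted p = 0.0113).

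**Figure D1:**
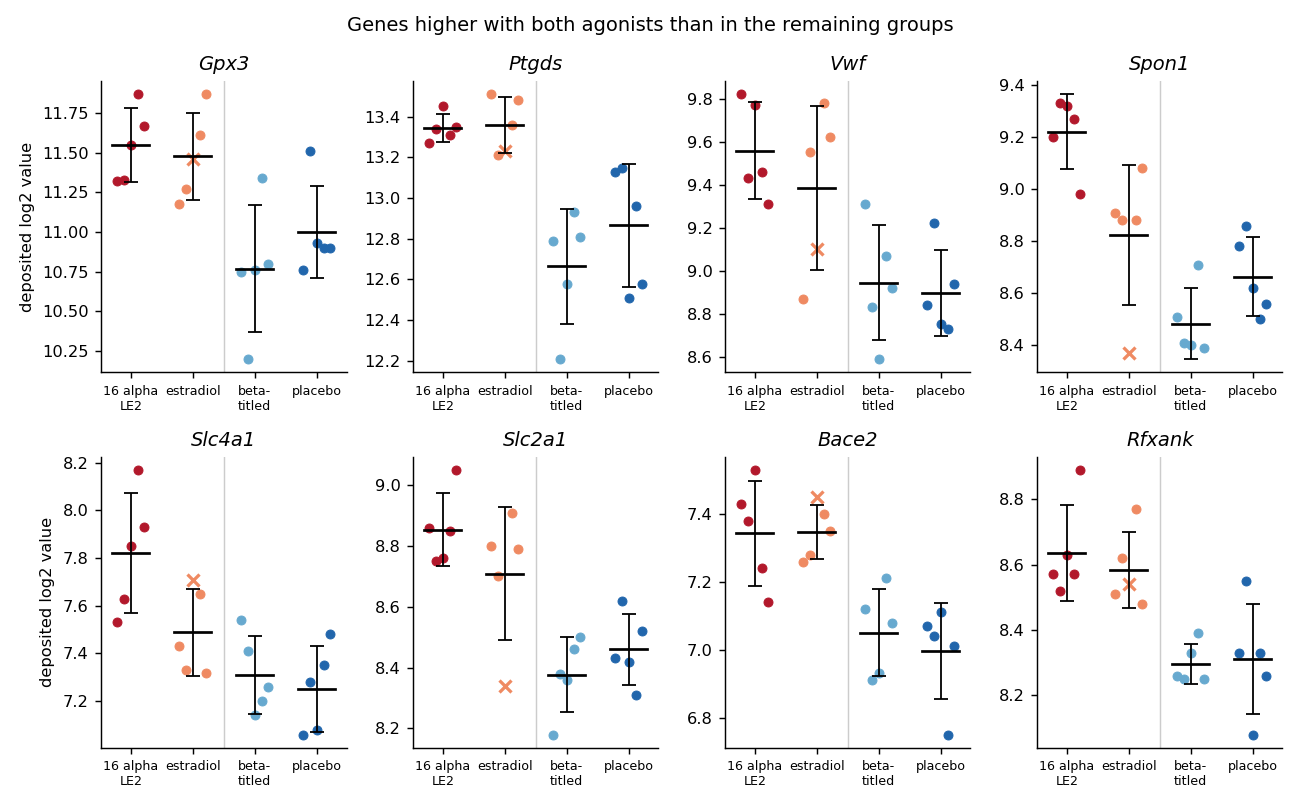
Deposited log2 values of the 8 genes that rose, by group, with 1 point per sample, group means as bars and SD as error lines (n = 5 in each group); the cross marks estradiol sample 33. All 10 agonist samples of Ptgds lie above the other 10, and for Slc2a1 the cross is the single agonist sample among the remaining groups, while for Spon1 it lies below all of them.

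Vwf, the platelet-binding glycoprotein made by endothelium, and Slc4a1, the anion exchanger of the red cell membrane, are both markers of other cell types of the ventricle. Vwf ran from 8.87 through 9.50 to 9.82 in the agonist samples and from 8.59 through 8.88 to 9.31 in the others, a difference of 0.55 ± 0.11 (SE; 1.47-fold, limma adjusted p = 0.0303). Of the agonist samples 8 lay above every remaining one, and the lowest, estradiol sample 29, lay among the remaining ones. Of the 19 tested members of the endothelial list, 14, among them Cdh5 and Pecam1, were lower, with a list median of −0.14 and no other call. The summed level of all 19 endothelial markers, each above the filter, was 14.62 to 15.03 log2 units in the agonist samples and 14.75 to 15.10 in the others. By group it was 14.62 to 14.79 with 16 alpha LE2, below every placebo sample, at 14.88 to 15.10. It was 14.69 to 15.03 with estradiol and 14.75 to 14.94 in the beta-titled group. Fabp4, at a mean of 13.95, weighs most in this sum. Slc4a1 ran from 7.32 through 7.64 to 8.17 in the agonist samples and from 7.06 through 7.27 to 7.54 in the others, a difference of 0.38 ± 0.08 (SE; 1.30-fold, limma adjusted p = 0.0437). The ranges overlapped, with 6 of 10 agonist samples above every remaining one. All 7 tested red blood cell markers were higher in the agonist samples, with a median of 0.29 (0.53 for 16 alpha LE2 and 0.10 for estradiol), while Epb42 lay below the filter. Their summed level was 12.66 to 14.14 in the agonist samples and 12.55 to 12.92 in the others, and the highest value, 14.14, was that of 16 alpha LE2 sample 33. The part of blood or of endothelial content in these 2 calls was not tested. In whole ventricle, more cells of a type and more RNA per cell cannot be told apart.

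Among the genes that fell, the matrix group was the largest. Of 37 tested members of the matrix list, 32 were lower and 5 higher, with 8 called lower and 1, Spon1, called higher. The list median was −0.13, beside −0.0045 over all genes. With 16 alpha LE2 alone the list median was −0.33, and with estradiol alone −0.03. Over all genes these medians were −0.0081 and −0.0034. The fall of the list as a whole was thus mostly that of 16 alpha LE2. Over all 12075 genes 6284 were lower, with 20 called lower (0.166%) and 8 called higher. The list made up 0.306% of the genes tested and held 9 of the 28 called. It was chosen with earlier results of these data known and was not tested as a set, so these counts are no test of enrichment. Sparc, a secreted collagen-binding glycoprotein, had the smallest p of all genes tested. It measured 11.12, 10.66, 10.93, 10.75 and 10.81 with 16 alpha LE2 and 11.44, 11.55, 11.27, 11.47 and 11.57 with estradiol, against 12.01, 11.36, 11.80, 11.83 and 11.75 in the beta-titled group and 11.86, 11.81, 12.08, 11.74 and 11.74 with placebo. The 16 alpha LE2 samples were the lowest 5 of all, estradiol samples lay between them and the remaining groups, and only beta-titled sample 32 reached into the estradiol range. The difference was −0.64 ± 0.08 (SE; 1.56-fold lower, limma adjusted p = 0.000499).

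Col3a1, the fibrillar collagen III chain, measured 9.55, 9.12, 8.86, 8.75 and 9.09 with 16 alpha LE2 and 10.21, 10.40, 10.03, 10.11 and 10.22 with estradiol. It measured 10.99, 10.87, 10.78, 10.34 and 10.24 in the beta-titled group and 11.09, 10.65, 11.05, 10.05 and 9.93 with placebo. The 5 samples given 16 alpha LE2 were below all others, whereas estradiol samples overlapped with beta-titled samples 35 and 36 and placebo samples 34 and 36. The difference was −0.97 ± 0.14 (SE; 1.95-fold lower, limma adjusted p = 0.00401). The Col3a1 call was lost against placebo alone (limma adjusted p = 0.0575) and with 2 groups of 10. The collagen chains Col5a2 and Col8a1 differed by −0.47 and −0.54, Fstl1, a secreted glycoprotein, by −0.54, and Smoc2, a calcium-binding matricellular protein, by −0.45. Postn, a matricellular protein of fibroblasts, differed by −0.69, and Mmp2, a gelatinase that cleaves denatured collagen, by −0.42. Adjusted p-values of these 6 were from 0.00954 for Fstl1 to 0.0335 for Postn. The major collagen I genes did not follow at a size the test could call: Col1a1 differed by −0.02 (limma adjusted p = 0.939) and Col1a2 by −0.32 (0.379).

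Most fibroblast markers were lower as well: of the 14 on the list, all above the filter, 12 were lower, Col3a1 alone was called, and the median was −0.18 (−0.31 for 16 alpha LE2 and −0.03 for estradiol). Its summed level was 14.87 to 15.18 log2 units in the agonist samples and 14.80 to 15.37 in the remaining ones, so the ranges overlapped. Markers of high level weigh most in such a sum, here Dcn and Gsn, at means of 13.66 and 13.16. These differed by −0.05 and 0.18, so the sum says little about the other members. The part of fibroblast content in the matrix calls was not tested. The ventricular cardiomyocyte markers had 11 of 12 tested members higher and none called, with summed levels of 17.51 to 17.91 in the agonist samples and 17.39 to 17.77 in the others.

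**Figure D2:**
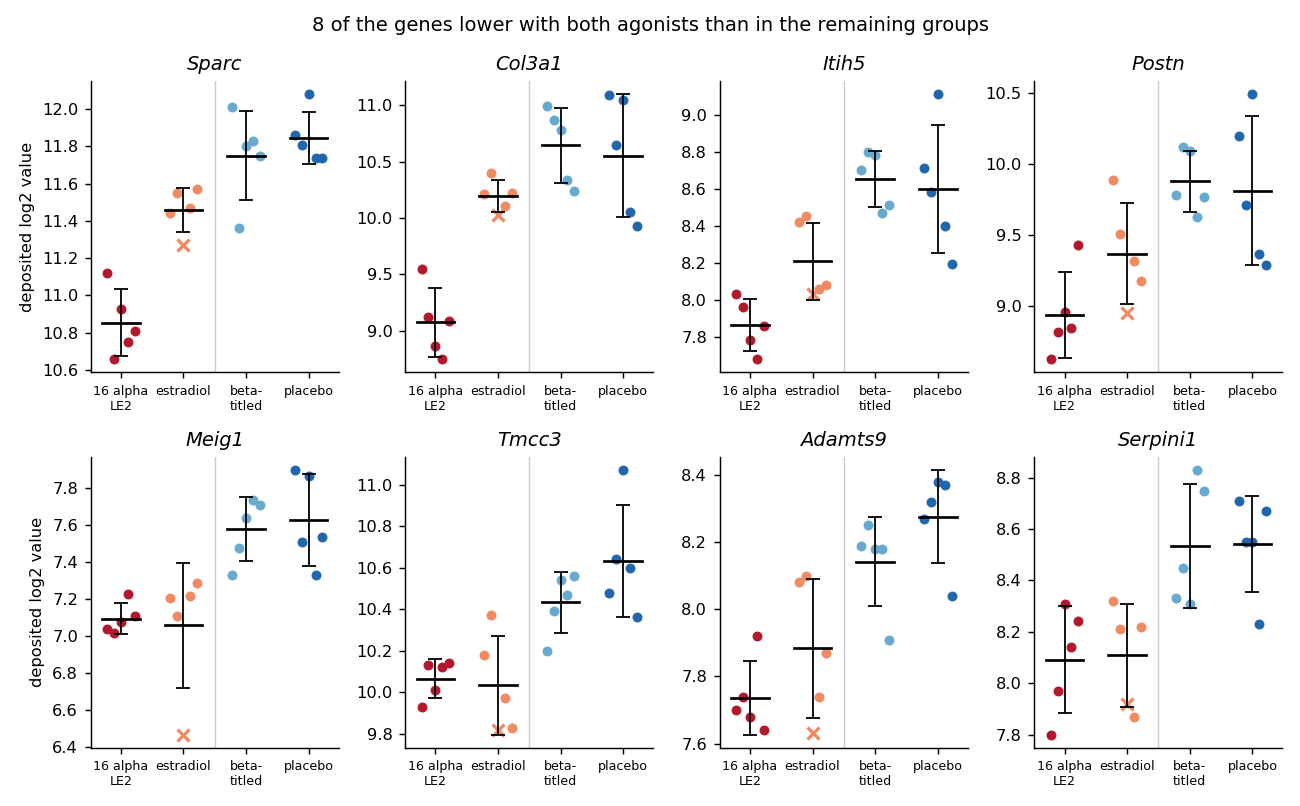
Deposited log2 values of 8 genes that fell, drawn as in the plot of the genes that rose. For Sparc and Col3a1 the 16 alpha LE2 samples lie below all others and the estradiol samples between them and most remaining samples; for Meig1 both agonists lie at the same height, below every remaining sample.

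Genes of proteases, adhesion receptors and cell signalling also fell. Itih5, a heavy chain of the hyaluronan-binding inter-alpha-trypsin inhibitor family, ran from 7.68 through 8.03 to 8.45 in the agonist samples and from 8.19 through 8.64 to 9.11 in the others, and 8 of 10 agonist samples lay below all remaining ones. Its difference was −0.59 ± 0.09 (SE; limma adjusted p = 0.00561). Adamts9, a secreted metalloprotease that cleaves proteoglycans, ran from 7.63 through 7.74 to 8.10 in the agonist samples and from 7.91 through 8.22 to 8.38 in the others. It differed by −0.40 ± 0.07 (SE; 1.32-fold lower, limma adjusted p = 0.00967), and the ranges overlapped through beta-titled sample 36 at 7.91 and placebo sample 36 at 8.04. Itga1, the collagen-binding integrin chain, and Itga6, a laminin-binding one, differed by −0.29 and −0.42, with adjusted p-values of 0.0335 and 0.0216. P2ry14, a receptor for UDP-sugars, differed by −0.30 (0.0244), and Serpini1 (neuroserpin), an inhibitor of plasminogen activator, by −0.44 (0.0244).

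Meig1, known from mouse for its need in sperm formation, was the other gene without overlap, and the only one that was lower (0.00828%). Its values were 7.04, 7.02, 7.08, 7.23 and 7.11 with 16 alpha LE2 and 7.21, 7.11, 6.47, 7.22 and 7.29 with estradiol. They were 7.33, 7.48, 7.64, 7.74 and 7.71 in the beta-titled group and 7.90, 7.51, 7.87, 7.33 and 7.54 with placebo. The highest agonist sample lay just under the lowest remaining ones, and estradiol sample 33, at 6.47, lay far below the other estradiol samples. The difference was −0.53 ± 0.09 (SE; 1.44-fold lower, limma adjusted p = 0.0105), and −0.45 without that sample (0.00518). The Meig1 call was lost against placebo alone (limma adjusted p = 0.0722) and against the beta-titled group alone (0.137). It was also lost with the replicate number as a block and at a threshold of 0.01. Tmcc3, a coiled-coil membrane protein of the endoplasmic reticulum, differed by −0.48 (0.0169), with 9 of 10 agonist samples below all remaining ones. The other falls were those of Nrep, a small neuronal regeneration-related protein (−0.69), Ppic, a cyclophilin that isomerizes proline bonds (−0.50), Colec11, a collectin of innate immunity (−0.46), and Fam43a (−0.31), with adjusted p-values of 0.0169, 0.0216, 0.0209 and 0.0105.

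Promoter windows from RefSeq (GRCm38.p6), 250 bases before to 50 after the gene's start, were at hand for 18 of the 28 called genes. Shown are those of the called glucose transporter, of the rise without overlap and of the fall with the smallest p, read 5′ to 3′ on the gene's own strand; capitals mark 1 arm of an estrogen response element, the letters GGTCA or, on the other strand, TGACC. The window of Slc2a1 is chr4:119108495-119108794 on the plus strand, that of Ptgds chr2:25469700-25469999 on the minus strand, and that of Sparc chr11:55420031-55420330 on the minus strand.
Slc2a1: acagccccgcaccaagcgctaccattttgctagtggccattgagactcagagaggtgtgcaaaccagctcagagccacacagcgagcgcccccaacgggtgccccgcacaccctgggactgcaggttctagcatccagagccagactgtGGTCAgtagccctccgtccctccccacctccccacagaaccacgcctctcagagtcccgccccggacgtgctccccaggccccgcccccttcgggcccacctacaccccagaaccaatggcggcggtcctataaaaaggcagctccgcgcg
Ptgds: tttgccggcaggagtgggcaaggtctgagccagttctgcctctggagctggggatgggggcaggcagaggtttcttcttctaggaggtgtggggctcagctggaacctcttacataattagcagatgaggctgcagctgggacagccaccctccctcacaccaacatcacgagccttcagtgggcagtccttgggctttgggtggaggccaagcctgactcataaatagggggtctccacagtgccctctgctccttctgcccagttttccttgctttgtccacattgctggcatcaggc
Sparc: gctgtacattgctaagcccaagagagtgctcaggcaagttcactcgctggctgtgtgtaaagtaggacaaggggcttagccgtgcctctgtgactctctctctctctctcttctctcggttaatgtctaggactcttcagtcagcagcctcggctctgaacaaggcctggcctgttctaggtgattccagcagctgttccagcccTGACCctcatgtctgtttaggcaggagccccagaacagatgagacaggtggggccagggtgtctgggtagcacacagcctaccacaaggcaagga
The Slc2a1 window holds 1 such run of letters, which begins at position −101 from the start, and the Sparc window 1, which begins at −45, while the Ptgds window holds none. The whole palindrome, GGTCANNNTGACC, was in 0 of the 18 windows and in 18 of 27025 promoters of the table (0.0666%). It was in 0 of the 9729 promoters of genes tested, so its absence from the 18 windows says nothing particular about called genes. The short run was in 8 of 18 windows of called genes (44.4%), beside 40.2% of all promoters and 37.4% of those of the genes tested, on either strand, so its share among called genes was near that of promoters at large. Such a match describes letters in a short window and not a binding site.

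Each agonist was then set against each remaining group, to see whether the shared difference came from 1 agonist or 1 remaining group. All 28 called genes had the same sign in all 4 pairs, and so did 4041 of all genes (33.5%). The pooled difference is the mean of these 4 pairs, so this count follows in part from how the genes were called. At an unadjusted limma p under 0.05 in all 4 pairs there were 43 genes (0.356%), 10 higher and 33 lower, of which 20 were called. All 28 reached that p in both pairs of 16 alpha LE2, as did 1087 of all genes against placebo (9%) and 675 against the beta-titled group (5.59%). In both pairs of estradiol 20 of the 28 reached it. Nrep and Mmp2 reached it in neither pair of estradiol. Col3a1, Spon1 and Col8a1 missed it only for estradiol minus placebo, and Ppic, Smoc2 and Slc4a1 only for estradiol minus the beta-titled group. For these genes a response to estradiol was thus not shown against each remaining group, although the sign was the same. In single pairs, 27 genes passed an adjusted p of 0.05 for 16 alpha LE2 minus placebo (0.224%) and 21 for 16 alpha LE2 minus the beta-titled group (0.174%). Without estradiol sample 33, an array in neither pair that enters the shared estimate of the spread, these counts were 74 (0.613%) and 37 (0.306%). In limma, 0 passed for estradiol minus placebo and 0 for estradiol minus the beta-titled group, where the smallest adjusted p-values were 0.275 and 0.212, and 1161 (9.61%) and 463 genes (3.83%) had an unadjusted p under 0.05.

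The beta-titled and placebo groups did not differ detectably on these genes. Of the 28, 0 had an unadjusted limma p under 0.05 in the beta-titled group minus placebo, where 688 of all genes (5.7%) did and 0 passed the adjustment. For Slc2a1 the 4 differences were 0.39 and 0.47 for 16 alpha LE2 minus placebo and minus the beta-titled group, and 0.25 and 0.33 for estradiol, with unadjusted limma p from 7.8e-05 to 0.0197. For Ptgds they were 0.48 and 0.67 with 16 alpha LE2 and 0.49 and 0.69 with estradiol. For Meig1 they were −0.53 and −0.48 with 16 alpha LE2 and −0.57 and −0.52 with estradiol. Each of these differences had an unadjusted limma p under 0.05.

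Comparisons with no array in common gave a further reading, although all share 1 estimate of the spread. In 16 alpha LE2 minus placebo and estradiol minus the beta-titled group, 64 genes (0.53%) had an unadjusted limma p under 0.05 and the same sign in both, and 10 had that p with opposite signs. In 16 alpha LE2 minus the beta-titled group and estradiol minus placebo there were 76 such genes (0.629%) and 16 with opposite signs. Each of these sets held 23 of the 28 called genes, which had been chosen from the same values. Of the 27 genes called for 16 alpha LE2 minus placebo, 23 had the same sign in estradiol minus the beta-titled group, beside 53.7% of all genes, and 12 of them did so at an unadjusted p under 0.05, where 3.83% of all genes reached that p in either direction. Their median ratio of the estradiol difference to the 16 alpha LE2 difference was 0.30. Of the 21 called for 16 alpha LE2 minus the beta-titled group, 17 had the same sign in estradiol minus placebo, beside 48.1% of all genes, and 8 of them did so at that p, which 9.61% of all genes reached. The median ratio there was 0.23. Without estradiol sample 33 the share at that p was smaller in the first reading: of the 74 genes then called for 16 alpha LE2 minus placebo, 53 had the same sign in estradiol minus the beta-titled group and 10 of them an unadjusted p under 0.05, a p that 6.87% of all genes reached, with a median ratio of 0.20, and 2 had that p with the opposite sign. Of the 37 then called for 16 alpha LE2 minus the beta-titled group, 32 had the same sign in estradiol minus placebo and 10 of them that p, which 4.94% of all genes reached, with a median ratio of 0.30. Over all 12075 genes the differences of the first couple of comparisons had a Pearson correlation of 0.26 and those of the second of 0.07; without estradiol sample 33 these were 0.091 and 0.16, so 1 array set which was larger. Genes are not independent replicates, and these coefficients only describe the arrays.

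**Figure D3:**
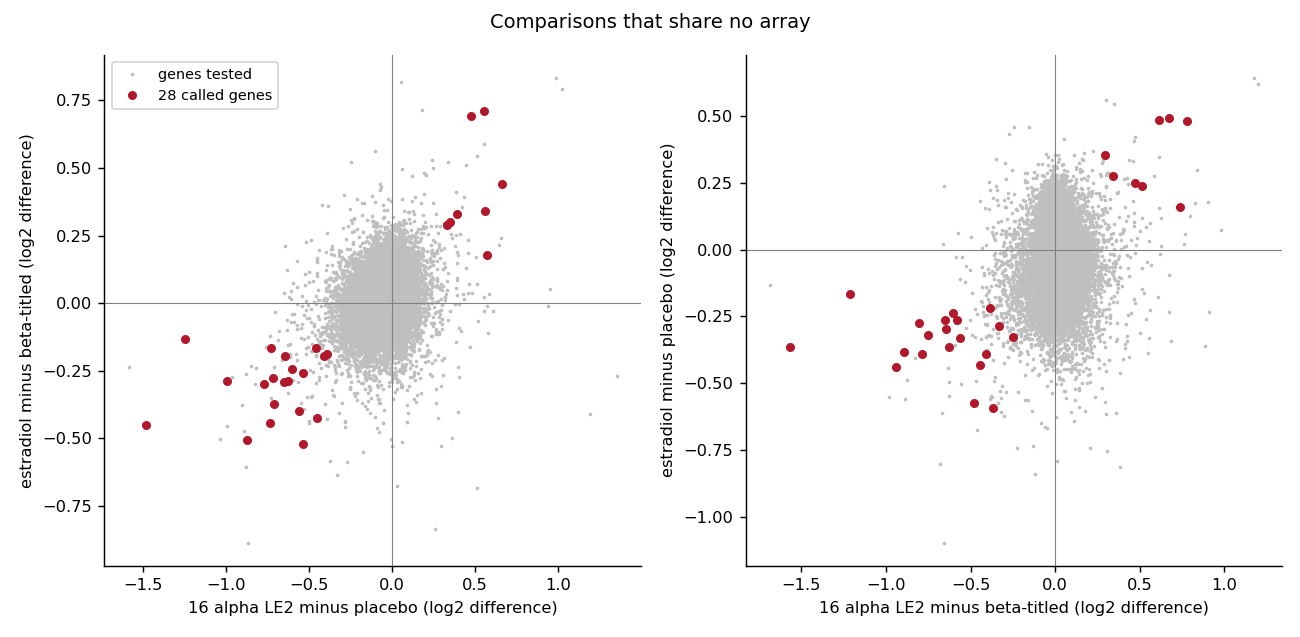
Log2 difference of each of the 12075 genes tested with 16 alpha LE2 (horizontal axis) and with estradiol (vertical axis), in comparisons that share no array. On the left they are minus placebo and minus the beta-titled group, and on the right these groups are exchanged. The 28 called genes (red) lie where both differences have the same sign.

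Of the 28 called genes, 24 stood further from the remaining groups with 16 alpha LE2 than with estradiol, and the median ratio of the estradiol to the 16 alpha LE2 difference was 0.523. The difference between 16 alpha LE2 and estradiol does not enter the difference on which a gene is called for both together. Both tests use the same estimate of a gene's spread, however, and a low estimate lowers both p-values. The difference between the agonists reached an unadjusted limma p under 0.05 for 17 of the 28, and all 17 had moved further with 16 alpha LE2. Over all genes 626 did (5.18%), a share that is no strict yardstick for genes already called. After adjustment over all genes, 2 genes passed in all (0.0166%), and 1 of them was called: Nrep, at −1.08 with 16 alpha LE2 minus estradiol (95% interval −1.45 to −0.703, limma adjusted p = 0.027). Nrep measured 8.11, 7.80, 7.79, 7.62 and 7.52 with 16 alpha LE2, below every other sample, and 9.26, 8.92, 8.52, 8.90 and 8.63 with estradiol. With estradiol it stood only −0.15 from the remaining groups, which ran from 8.52 to 9.51, so its shared call rests on 16 alpha LE2. Sparc and Col3a1 came close to the adjusted threshold, at −0.61 (95% interval −0.84 to −0.372, adjusted p = 0.0507) and −1.12 (−1.54 to −0.70, 0.0501). The adjusted call of Nrep was lost when any 1 of 8 agonist samples was left out (16 alpha LE2 samples 30, 32, 33 and 34 and estradiol samples 29, 30, 34 and 35), each of which left 0 called genes that passed.

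The 17 genes with an unadjusted p under 0.05 between the agonists were 15 falls and 2 rises, Spon1 and Slc4a1, and included all 9 called members of the matrix list. Their ratio of the estradiol to the 16 alpha LE2 difference was 0.122 to 0.57, with a median of 0.426. The remaining 11 were Ptgds, Gpx3, Slc2a1, Bace2, Rfxank and Vwf among the rises and Meig1, Tmcc3, Serpini1, Adamts9 and Itga1 among the falls. Their ratio was 0.669 to 1.08, with a median of 0.894. The genes had been sorted by the difference between the agonists, which this ratio restates. The gap between the ratios of the 17 and the 11 thus follows from the sorting and does not show separate classes of genes. Leaving out estradiol sample 33 reuses the other arrays and is no independent check. Without estradiol sample 33 all 17 kept an unadjusted p under 0.05, with a ratio of 0.0549 to 0.563 and a median of 0.362. The 11 then had a ratio of 0.552 to 1.08 and a median of 0.87. One of them, Adamts9, then differed between the agonists by −0.211 for 16 alpha LE2 minus estradiol (unadjusted p = 0.0276, adjusted p = 0.725, both from limma). In that setting the estradiol difference of Nrep was −0.0673, that of Smoc2 −0.153 and that of Col8a1 −0.198, each smaller by more than 1.5 times. A missed threshold does not show that both agents act alike, and the intervals give the bounds: −0.282 to 0.249 for Ptgds, −0.227 to 0.305 for Meig1, −0.172 to 0.157 for Bace2, −0.0616 to 0.348 for Slc2a1 and −0.292 to 0.433 for Gpx3, each as 16 alpha LE2 minus estradiol. Doses are unknown, so these sizes compare the treatments as given.

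**Figure D4:**
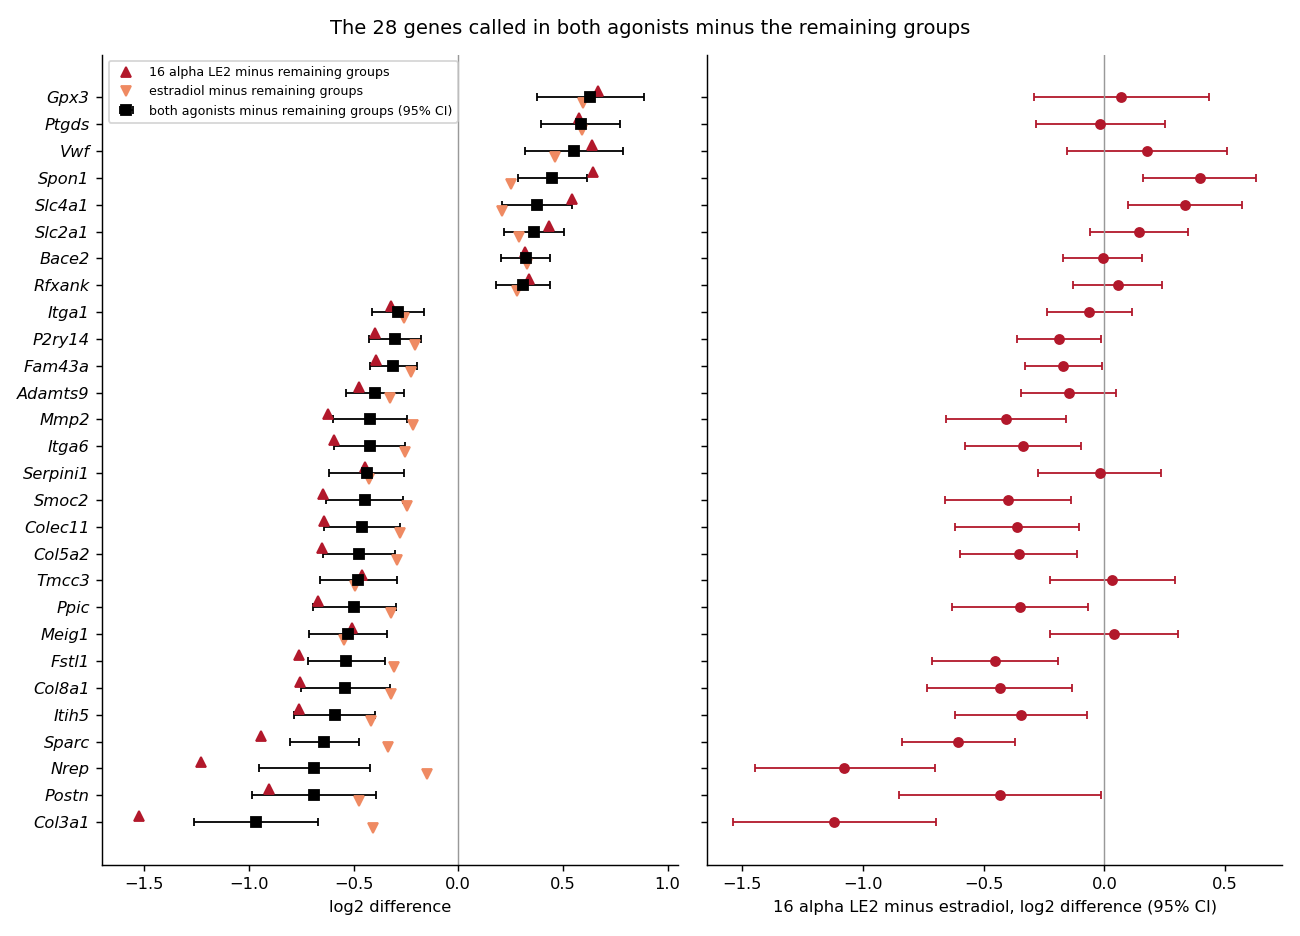
Left, log2 difference of the 28 called genes from the remaining groups for both agonists (square, with 95% confidence interval), 16 alpha LE2 (upward triangle) and estradiol (downward triangle); right, the difference between the agonists with its 95% interval. Triangles of Ptgds, Bace2, Meig1, Tmcc3 and Serpini1 nearly coincide, while those of Nrep, Col3a1 and Sparc lie far apart, with 16 alpha LE2 further from 0.

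Several genes with a known place in estrogen or cardiac stress responses were not called on both agonists together. Myh7, the beta myosin heavy chain, measured 11.12, 10.47, 10.84, 11.03 and 11.58 with 16 alpha LE2 and 9.32, 10.15, 9.78, 9.79 and 10.15 with estradiol. In the beta-titled group it measured 9.93 to 10.01 in 4 samples and 10.64 in sample 35, and with placebo 9.29, 9.91, 9.31, 10.45 and 9.34. Of the 5 samples given 16 alpha LE2, 4 lay above all others, estradiol lay within the remaining groups, and the pooled difference of 0.54 had a limma adjusted p of 0.233. Tmem100, a target of BMP signalling in endothelium, and the transcription factor Klf4 showed the reverse order: with estradiol they stood −0.66 and −0.61 from the remaining groups, and with 16 alpha LE2 −0.20 and −0.12 (pooled adjusted p = 0.101 and 0.189). Igf1, a growth factor induced by estrogen in the uterus, differed by −0.25 (0.452), and Nppa, the atrial natriuretic peptide, by 0.33 (0.502). In the list of estrogen targets known from other tissues 9 members were higher and 9 lower, with Ptgds as the single call.

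The matrix-associated genes Aspn (asporin) and Cpxm2 (a carboxypeptidase-like protein) were lower with both agonists without passing. Aspn differed by −0.59 (−0.68 with 16 alpha LE2 and −0.50 with estradiol, pooled adjusted p = 0.0764), and Cpxm2 by −0.47 (−0.44 with 16 alpha LE2 and −0.50 with estradiol, 0.112). Without estradiol sample 33 the estradiol difference was −0.323 for Aspn and −0.416 for Cpxm2. Both had an unadjusted limma p under 0.05 in all 4 pairs. The members just inside the threshold were Itga1 and Postn (both 0.0335) and Slc4a1 (0.0437), and those just outside were Chrna2, at −0.28 (0.0622), Aspn, and Marcks, at −0.54 (0.0816).

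**Figure D5:**
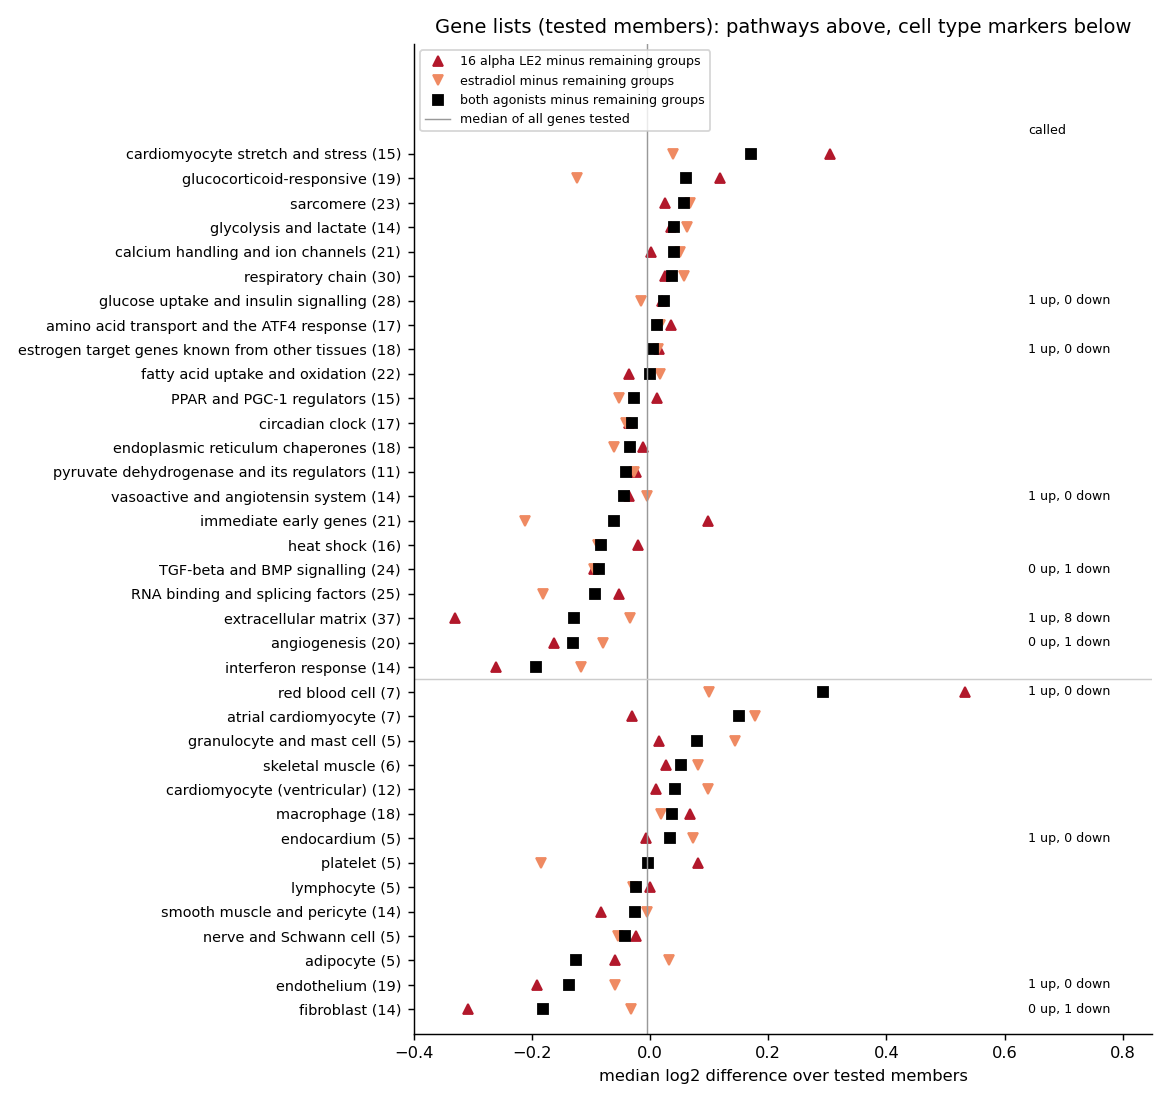
Median log2 difference of the tested members of each gene list (number in parentheses) for both agonists (squares), 16 alpha LE2 (upward triangles) and estradiol (downward triangles) minus the remaining groups, with the numbers of called members at the right and the median of all genes as a vertical line. The extracellular matrix list has 1 called rise and 8 called falls, and its median is −0.33 for 16 alpha LE2 and −0.03 for estradiol.

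Leaving out estradiol sample 33 gave 26 called genes (0.215%), 9 higher and 17 lower, of which 23 were among the 28. All 28 kept their sign, and all 28 still had the same sign in all 4 pairs. The 5 lost calls were Serpini1 (adjusted p = 0.0534), Mmp2 (0.0533), Itga1 (0.0523), Postn (0.0876) and Slc4a1 (0.0876). The 3 gained were Adamts3, a procollagen-processing protease, at 0.19 (limma adjusted p = 0.0455), Trnp1 at 0.27 (0.0346) and Plpp6, a lipid phosphatase, at −0.15 (0.0435). Spon1, in which that sample was the lowest of all, rose by 0.51 ± 0.064 without it (SE; limma adjusted p = 0.000975). When each of the 20 arrays was left out in turn, 13 of the 28 calls were never lost: Sparc, Col3a1, Ptgds, Itih5, Fstl1, Adamts9, Meig1, Bace2, Col5a2, Fam43a, Spon1, Tmcc3 and Nrep. Of these 13, Sparc alone kept the call under every other setting as well.

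Most called genes with more than 1 probe set had the same sign on all of them. Of the 28, 21 had several probe sets, and 35 of the 37 further probe sets had the sign of the one used. The exceptions were 1 probe set each of Sparc and Serpini1, at 0.04 and 0.02. The same sign did not always mean a like size. Further probe sets read −0.02 and −0.22 for Adamts9, 0.06 and 0.03 for Rfxank and 0.04 and 0.39 for Slc4a1, while that of Ptgds read 0.72. The probe sets used read −0.40, 0.31, 0.38 and 0.58. With the mean of probe sets, where 22 genes were called, Adamts9, Rfxank and Slc4a1 were among those that lost the call.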

How the data were processed

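RNA from 20 ventricle samples (100 ng labelled per array, per the labels) was measured on Affymetrix arrays. The deposited table gives a log2 value per array for 45101 probe sets. That unit was read from the range of the values, 5.07 to 15.31; how the authors summarized and normalized the arrays, and the base of the logarithm, is not given in the sources used here. Signal over background was not available for this work.

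Setting aside 64 controls, 34945 probe sets had exactly 1 symbol in the platform annotation, 932 had several and 9160 had none. Gene IDs of 34741 of the 34945 were found in the reference gene table, which changed 0 symbols. A gene took its value from the probe set of highest mean across the 20 arrays, and was tested if that mean exceeded 6.93, the median over probe sets. The fit used limma 3.58.1 in R 4.3.3 (lmFit on 4 group means, eBayes with an intensity trend). The pooled contrast was the mean of the 2 agonist groups minus the mean of the 2 remaining ones. Calls were made at 0.05 after Benjamini-Hochberg adjustment across the 12075 genes. Because all arrays share 1 estimate of the spread, an array outside a comparison also acts on its p-values.

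The sample sets, genes and 39 gene lists were chosen with earlier results of these data known. Of 696 list entries, 54 were not matched. Genes were named as the largest rises and falls among calls with the same sign in all 4 pairs, called list members, the leading genes with an unadjusted p under 0.05 in all 4 pairs, and a set always named (Slc2a1, Slc2a4, Esr1, Esr2, Ptgds, Igf1, Myh7, Pdk4, Nppa, Tmem100, Klf4, Sparc, Col3a1 and Nrep). The 6 calls outside that rule (Fam43a, Itga6, P2ry14, Smoc2, Mmp2 and Itga1), genes next to the threshold, calls gained without estradiol sample 33 and list members that were not called were named after their values were seen. Gene lists are described by counts and medians and were not tested as sets. The fit was also run on simulated data with independent genes and equal effects of both agonists. Those data differ from the arrays here, so that run says nothing about the present calls. Other settings varied the filter, probe set summary, scaling, trend, array weights, grouping (2 groups of 10, the replicate number as a block, each remaining group alone) and threshold, and left out each array; leaving out 3 arrays together was added after the data were examined. Promoter windows came from RefSeq (GRCm38.p6), by symbol; where a gene had several, the first was used. Figures were drawn with matplotlib 3.10.9.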

Additional observations from a re-analysis of the deposited data

Results flagged for a closer look

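Among the groups of 5 of the 37 named genes, 148 in all, 8 held a sample far from the other 4, and chance alone marks about 1 in 20 groups. Each is given with the gap to the nearest sample as a share of the group's whole range.

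In estradiol sample 33, Meig1 was 6.47, against 7.11 to 7.29 in the other estradiol samples (0.78 of the range), and Spon1 was 8.37, against 8.88 to 9.08 (0.715). In estradiol sample 30, Fam43a was 7.97, against 7.72 to 7.77 (0.81), and Tmem100 was 9.18, against 8.74 to 8.85 (0.745). Among the beta-titled samples, Adamts9 was 7.91 in sample 36, against 8.18 to 8.25 in the other 4 (0.806), Itga6 was 9.54 in sample 33, against 9.13 to 9.23 (0.741), and Myh7 was 10.64 in sample 35, against 9.93 to 10.01 (0.883). In placebo sample 32, Gpx3 was 11.51, against 10.76 to 10.93 (0.782), a value within the range of the agonist samples.

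Nrep differed between the agonists, with a difference of −1.08 for 16 alpha LE2 minus estradiol by the test of that difference itself (limma adjusted p = 0.027), although it was called lower on both together.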

How the results depend on the processing

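The count of called genes, 28 in the reported fit, was 3 against placebo alone, 5 against the beta-titled group alone, 15 with 2 groups of 10, and 6 at a threshold of 0.01; the other planned settings that used all arrays gave 21 with the replicate number as a block to 38 with array weights. All calls had the same sign in all 4 pairs under the settings with placebo alone (3), the beta-titled group alone (5) and the threshold of 0.01 (6). With 1 array left out the count was 13 to 35, and it was 18 without estradiol sample 34, 13 without placebo sample 31 and 18 without beta-titled sample 33, in each case with the same sign in all 4 pairs. No called gene changed sign under the 34 settings. Sparc was the gene called under every one, and of 946 combinations of a called gene and a setting, 711 kept the call and 235 lost it. With 1 array left out in turn, Slc4a1 and Postn lost the call 14 times each (highest adjusted p 0.123 and 0.0956), Vwf 13 (0.084), Itga1 and Rfxank 12 each (0.0956 and 0.0676), Mmp2 10 (0.0716), P2ry14 and Serpini1 6 each (0.0676), Smoc2 5 (0.0676), Itga6 and Ppic 4 each (0.0642 and 0.067), Colec11 2, without 16 alpha LE2 sample 30 (0.0505) and placebo sample 31 (0.0623), and Col8a1 1, without placebo sample 31 (0.0618). Outside the calls, Aspn passed without estradiol sample 29 (0.0166) or placebo sample 34 (0.0416), Cpxm2 without estradiol sample 29 (0.0206), placebo sample 32 (0.0364) or beta-titled sample 32 (0.0285), Klf4 and Tmem100 without estradiol sample 30 (both 0.0475), and Tmem100 without beta-titled sample 31 (0.0213). Slc2a4 turned to −0.0112 against placebo alone and to −0.00671 without estradiol sample 34, in a range of −0.00671 to 0.0639 with 1 array left out.

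For the comparisons without shared arrays, the first count (64) was 105 with quantile normalization, 160 with the replicate block, 148 and 16 at thresholds of 0.1 and 0.01, and 118 without estradiol sample 33 and beta-titled samples 31 and 32, a setting chosen after seeing the data. It was 41 to 88 with 1 array left out, with 41 and 42 without beta-titled samples 33 and 36. The second count (76) was 50 with a stricter filter, 125 with the replicate block, 180 and 15 at those thresholds, and 146 without those 3 arrays. The number of called genes that also passed between the agonists (1) was 3 with no filter, with a stricter filter, with the replicate block and at a threshold of 0.1, 2 with quantile normalization or no intensity trend, 4 with array weights, and 0 with the mean of probe sets, with either remaining group alone or at a threshold of 0.01. It was 0 to 4 with 1 array left out, with 4 without 16 alpha LE2 sample 29, 3 without placebo samples 33 or 36 or beta-titled sample 31, and 2 without placebo samples 31 or 34 or beta-titled samples 32, 35 or 36. The causes of these shifts were not tested. Same-numbered samples showed no general tendency to deviate together (17 pairs, correlations −0.35 to 0.51, median −0.02, beside 0.0088 over 133 other pairs). Of these 17 pairs 6 lay above 0.1, and 3 of 20 samples correlated best with their own number. Whether same-numbered samples share more than the number cannot be told from these values. The replicate block gave 21 calls, 5 higher and 16 lower. Numbers 29 and 30 occurred only among agonist samples, and 31 and 36 only among the remaining ones. The block was thus in part confounded with the pooled difference, and calls lost under it cannot be read as an effect of the number. Low-level genes, Esr1 and Esr2 among them, could not be separated from background.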

Other observations

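Further gene groups held few calls. All 14 tested interferon-response genes had a pooled difference below 0, with a median of −0.19, although with estradiol alone Oasl2 stood at 0.11 and Ddx58 at 0.04 above the remaining groups. Among them were the guanylate-binding proteins Gbp3 at −0.56 and Gbp2 at −0.41 (limma adjusted p = 0.50 and 0.688). The class II histocompatibility genes H2-Aa and H2-Ab1 differed by −0.77 and −0.72 (limma adjusted p = 0.189 and 0.291). Rfxank, whose product acts on this class of genes, was among the rises. Of 15 cardiomyocyte stress genes 12 were higher, by a median of 0.17 (0.31 with 16 alpha LE2 and 0.04 with estradiol), with the natriuretic peptide Nppb at 0.53 (adjusted p = 0.0984). The immediate early genes had medians of 0.10 with 16 alpha LE2 and −0.21 with estradiol, and Klf2, a transcription factor of endothelium under flow, differed by −0.42 on both together (adjusted p = 0.112). In the list of TGF-beta and BMP signalling 20 of 24 members were lower, with a median of −0.09 and Nrep as its single call, and in the angiogenesis list 14 of 20, with a median of −0.13 and Adamts9 as its single call. The apelin receptor Aplnr differed by −0.91 (adjusted p = 0.101).

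The highest pooled differences of all tested genes were those of the neutrophil calgranulins S100a8 and S100a9, at 0.91 each, and neither passed (limma adjusted p = 0.268 and 0.291). The summed level of the granulocyte and mast cell markers was 10.42 to 11.56 in the agonist samples and 10.23 to 10.85 in the remaining ones, with Mmp9, Cpa3, Mcpt4 and Cma1 below the filter. The 2 highest samples were 16 alpha LE2 samples 32 and 33, at 11.40 and 11.56.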
